A study of Mus musculus with 18 samples.

Results

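The cleavage, polyadenylation and Integrator genes described here are 37 named mouse genes, 25 of them encoding factors of mRNA 3′ end formation and 12 encoding subunits of the Integrator complex. The members were taken from a list of symbols and not from their values. All 37 had a value in both deposited expression tables, among 9435 genes in the knockdown table and 9472 genes in the overexpression table. Of the 661941 alternative splicing events annotated in the splicing table, 2178 belonged to a member and were covered in at least 1 of the 2 datasets, and they came from 36 members (*Cstf2t* had no such event).

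The libraries came from mouse embryonic fibroblasts (MEFs) with the genotype Collagen-OKSM, M2rtta+, in which doxycycline switches on the OSKM cassette that starts reprogramming (OCT4, KLF4, SOX2 and MYC). Poly-A RNA was sequenced in 18 libraries of 9 groups, with 2 libraries per group. In the knockdown dataset, non-infected cells at day 0 (NI) were set beside cells at day 12 that had received, at day 0, a lentiviral scrambled control shRNA (shSCR), 1 of 2 shRNAs against *Cpsf3* (shCPSF3#1, shCPSF3#2) or 1 of 2 against *Hnrnpul1* (shUL1#1, shUL1#2). In the overexpression dataset, a separate NI group at day 0 was set beside cells at day 12 that had received a retroviral empty vector (Empty) or T7-TIA1 cDNA. By the study's protocol, infected cells were sorted for GFP at day 2 and replated on irradiated feeder cells, so a day 12 library may hold RNA of feeders and of cells at different stages. The day in the characteristics of the shUL1#2 libraries and of the overexpression NI libraries differed from the day in their titles, and the title was followed. The labels do not say whether the 2 libraries of a group came from separate cultures, so p-values measure only the spread between these libraries, which may be technical. In these bulk samples, fewer cells of a type and less RNA per cell cannot be told apart.

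The 3′ ends of most mRNAs form by cleavage of the nascent transcript followed by addition of a poly(A) tail. The cleavage and polyadenylation specificity factor (CPSF) recognises the polyadenylation signal through CPSF4 and WDR33, with CPSF1 as scaffold and FIP1L1 recruiting poly(A) polymerase, and its module of CPSF2, symplekin (SYMPK) and the endonuclease CPSF3 cuts the RNA. The Integrator complex uses the paralogous pair INTS9 and INTS11 to cut small nuclear RNAs and promoter-proximal transcripts.

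Some sequences carry the results that follow. The first 2 are the sites in the *Cpsf3* mRNA that the shRNAs of the study target, shown whole in capitals because the entire stretch is the target. On GRCm38 (mm10) with GENCODE annotation, the site of shRNA #1 lies at chr12:21302460-21302480 in exon 10 of 18 and that of shRNA #2 at chr12:21308936-21308956 in exon 14 of 18, both in the coding sequence of the plus strand.
CPSF3 shRNA#1: CCAGCAAACCAGTGAATTTAT
CPSF3 shRNA#2: CCTGCTCTGAAGGTGTTCAAA
The next 3 are internal coding exons of members whose inclusion differed between groups, all of genes on the plus strand. Each was read from a GENCODE transcript of its gene, which also gives the exon number and frame. The first 3 and last 3 bases of each exon are in capitals to mark where the splice sites join it. The *Papola* exon is exon 20 of 22 at chr12:105833100-105833162, the *Fip1l1* exon is exon 11 of 16 at chr5:74564519-74564626, and the *Ints7* exon is exon 2 of 20 at chr1:191582399-191582528. The first is 63 nt and the second 108 nt long, both multiples of 3 with no stop codon in frame, whereas the *Ints7* exon of 130 nt is not a multiple of 3, so its skipping shifts the reading frame.
Papola exon: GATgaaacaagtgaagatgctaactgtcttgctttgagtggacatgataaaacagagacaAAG
Fip1l1 exon: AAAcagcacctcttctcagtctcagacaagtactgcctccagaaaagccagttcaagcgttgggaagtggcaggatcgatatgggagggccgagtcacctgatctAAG
Ints7 exon: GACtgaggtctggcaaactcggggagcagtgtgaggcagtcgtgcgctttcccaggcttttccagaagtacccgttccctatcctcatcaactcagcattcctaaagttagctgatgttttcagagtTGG

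Expression is given as scaled CPM, the deposited CPM values computed against a library size that the authors scaled for each library, and differences are given on the scale of log2(scaled CPM + 1) with their standard error (SE). Within each library the values were whole multiples of a single step (within 0.02 of a step), and the sums of these steps ran from 98882289 to 109047542 per library, which would be the number of counted reads only if a step stands for 1 read. The cell state of the libraries differed along with the groups. Of 9 fibroblast markers in the tables, 4 were lower in shSCR than in NI, 7 were higher in shCPSF3 than in shSCR and 6 were higher in shUL1 than in shSCR, while in the overexpression dataset 7 were lower in Empty than in NI. The 3 epithelial markers of 12 epithelial and pluripotency markers that were in the knockdown table were all higher in shSCR than in NI and all lower in shCPSF3 than in shSCR, while 0 of the 3 were called in shUL1 against shSCR, and *Pou5f1* and *Nanog* were in neither table. The summed level of 3 macrophage markers rose from 9.57 to 10.6 in NI to 171 to 300 in shSCR (range of the libraries), and was 1371 to 1814 in shCPSF3#1, 429 to 1282 in shCPSF3#2, 259 to 533 in shUL1#1 and 581 to 1000 in shUL1#2. All 3 were called higher in shSCR against NI and in shCPSF3 against shSCR, and 0 in shUL1 against shSCR. *Ptprc*, the pan-leukocyte marker, and the endothelial markers were in neither table. The part of these shifts in the results below was not tested.

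Across the 18 libraries, the members were measured well above the low end of the tables, from 10.1 to 1904 in the knockdown dataset and from 11.4 to 1947 in the overexpression dataset. Per kb of annotated exon, the mean level in the NI group of the knockdown dataset was lowest for *Ints6* at 2.61 scaled CPM per kb and highest for *Pabpc1*, the cytoplasmic poly(A)-binding protein, at 243. The next levels were 81.5 for its relative *Pabpc4*, 43.9 for *Papola*, the main nuclear poly(A) polymerase, and 41.9 for *Xrn2*, the exonuclease that degrades the RNA downstream of the cleavage site. *Cpsf3* stood at 15.8 on this scale.

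**Figure D1:**
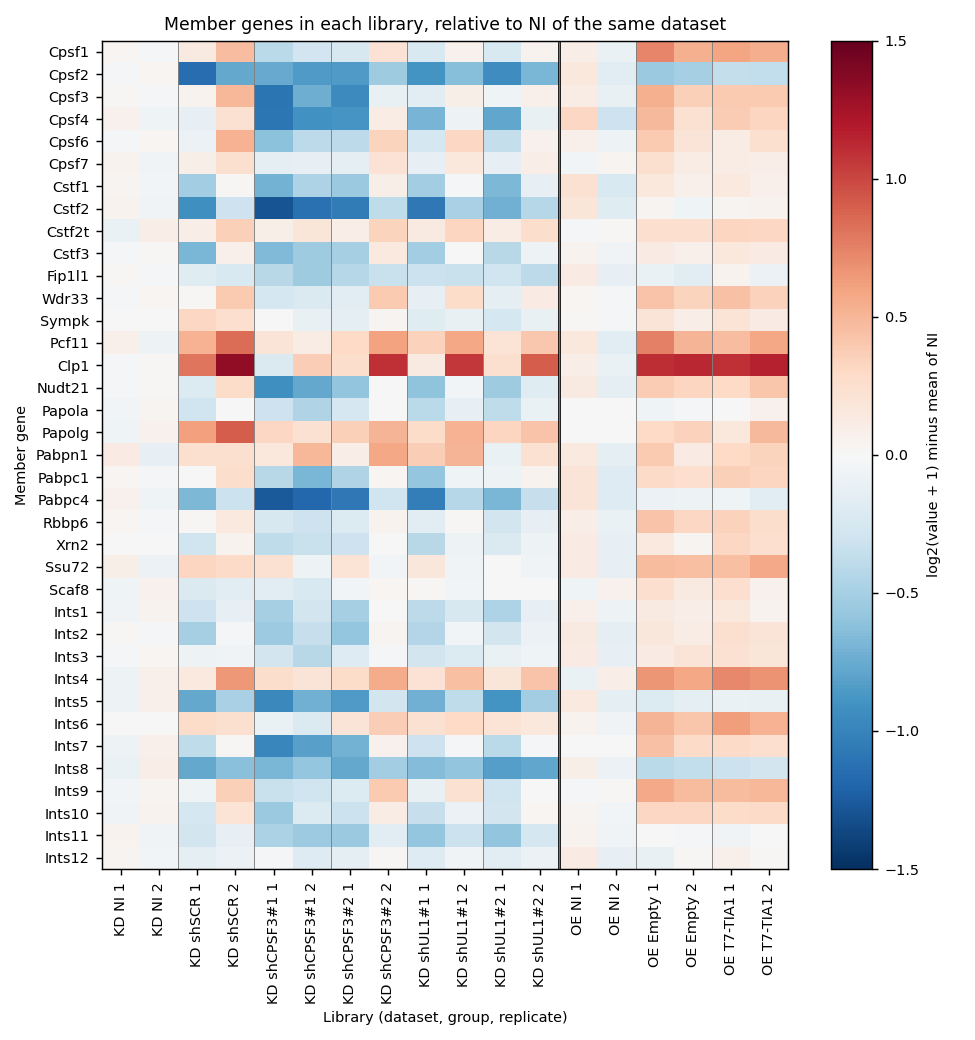
Each row is a member and each column a library, grouped by condition with the knockdown dataset left of the overexpression dataset, and the color gives log2(scaled CPM + 1) minus the mean of the NI libraries of the same dataset. *Cpsf2*, *Ints8* and *Ints5* are below that mean in all day 12 libraries, *Pcf11* and *Papolg* are above it in all of them, and replicate 2 is above replicate 1 for most members in the shSCR, shCPSF3#2 and shUL1 groups.

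The members moved in both directions between day 0 and day 12 in the control knockdown cells. *Cpsf2*, the catalytically inactive partner of CPSF3, and *Ints8*, an Integrator subunit, were lower at day 12, whereas *Papolg*, a second nuclear poly(A) polymerase, and *Pcf11*, a subunit of cleavage factor II that also acts in termination, were higher. Thus, 2 members were called higher, against 22.5% of all genes, and 2 were called lower, against 22.0% of all genes (*limma*, adjusted p under 0.05), smaller shares of the members than of the table at large, a difference that was not tested. Of the estimates, 19 were above 0 and 18 below, with a median of 0.03 beside 0.000495 for all genes.

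*Cpsf2* measured 144 and 149 scaled CPM in the 2 NI libraries and 65.8 and 85.4 in the 2 shSCR libraries. It lay lower in both shSCR libraries, with a log2 difference of -0.95 (SE 0.17, adjusted p = 0.00319). *Ints8* measured 84.0 and 96.0 in NI and 52.2 and 57.7 in shSCR, a log2 difference of -0.70 (SE 0.12, adjusted p = 0.00263). Both genes thus stayed below their NI level in each day 12 control library. *Papolg* measured 17.9 and 19.7 in NI and 29.2 and 36.2 in shSCR, a log2 difference of 0.76 (SE 0.14, adjusted p = 0.00373). *Pcf11* measured 78.9 and 70.9 in NI and 108 and 135 in shSCR, a log2 difference of 0.68 (SE 0.16, adjusted p = 0.0106), and this call was lost without NI replicate 2 (adjusted p = 0.0706) or shSCR replicate 2 (adjusted p = 0.0641). The largest estimate among all members did not pass the test. *Clp1*, the RNA kinase that pairs with PCF11, measured 11.8 and 12.1 in NI and 21.6 and 31.6 in shSCR, a log2 difference of 1.07 (SE 0.41, adjusted p = 0.0654). The groups did not overlap, but the shSCR libraries lay far apart. Without each of the 12 knockdown libraries in turn, between 3 and 5 members were called.

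Most called members were higher at day 12 in the overexpression dataset. In Empty against NI, 12 members were called higher, against 22.8% of all genes, and 2 were called lower, against 23.6% of all genes, with 28 estimates above 0 and a median of 0.25 beside 0.0128 for all genes. The CPSF core moved with opposite signs: *Cpsf1*, *Cpsf3* and *Wdr33* were higher and *Cpsf2* was lower. On the Integrator side, *Ints4*, *Ints6*, *Ints7*, *Ints9* and *Ints10* were higher and *Ints8* was lower.

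*Clp1* was the member with the largest difference. It measured 13.2 and 11.4 in NI and 27.6 and 28.2 in Empty, a log2 difference of 1.12 (SE 0.12, adjusted p = 0.00201), and it was the only one of the 14 members that passed in each of the 13 alternatives run. *Cpsf1* measured 94.7 and 83.0 in NI and 148 and 128 in Empty, a log2 difference of 0.63 (SE 0.12, adjusted p = 0.0105). For both genes, the Empty libraries lay above the NI libraries. *Pcf11* measured 82.2 and 66.2 in NI and 125 and 106 in Empty, a log2 difference of 0.63 (SE 0.15, adjusted p = 0.0199). *Ints4*, a scaffold that binds the INTS9 and INTS11 pair, measured 44.9 and 51.8 in NI and 77.0 and 72.5 in Empty, a log2 difference of 0.62 (SE 0.11, adjusted p = 0.0087). *Ints9* measured 31.0 and 31.6 in NI and 47.0 and 43.7 in Empty, a log2 difference of 0.52 (SE 0.10, adjusted p = 0.0105). These 3 were higher in both Empty libraries than in either NI library.

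*Cpsf3* measured 82.2 and 70.7 in NI and 111 and 98.1 in Empty, a log2 difference of 0.45 (SE 0.12, adjusted p = 0.0302). *Wdr33* measured 70.8 and 68.3 in NI and 93.8 and 87.8 in Empty, a log2 difference of 0.38 (SE 0.10, adjusted p = 0.0273). *Cpsf2* went the other way, from 157 and 126 in NI to 95.0 and 99.5 in Empty, a log2 difference of -0.53 (SE 0.13, adjusted p = 0.0234). *Ints8* likewise was lower, with 88.9 and 78.5 in NI and 63.0 and 64.6 in Empty, a log2 difference of -0.38 (SE 0.11, adjusted p = 0.0318). The other 5 called members were also higher, by 0.31 to 0.47. *Ssu72*, a phosphatase of the RNA polymerase II tail, measured 49.9 and 41.7 in NI and 63.9 and 63.0 in Empty (log2 difference 0.47, adjusted p = 0.0282). *Ints6* measured 46.2 and 43.1 in NI and 64.3 and 59.8 in Empty (log2 difference 0.46, adjusted p = 0.0178). *Ints7* measured 62.9 and 62.7 in NI and 85.4 and 76.9 in Empty (log2 difference 0.36, adjusted p = 0.0328). None of these 3 overlapped between the groups. *Ints10* measured 47.0 and 44.7 in NI and 57.1 and 57.1 in Empty (log2 difference 0.31, adjusted p = 0.0432, and 0.0683 with the replicate number as a block). *Rbbp6*, which is needed for the cleavage reaction, measured 124 and 108 in NI and 155 and 143 in Empty (log2 difference 0.37, adjusted p = 0.0465). The number of calls rested on single libraries, as 1 member was called without Empty replicate 1, 3 without Empty replicate 2, 4 without either T7-TIA1 library and 23 without NI replicate 1. In this dataset 4 of 7 proliferation genes were higher and 1 was lower in Empty than in NI, and their part in the result was not tested.

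Set side by side, the 2 datasets called *Cpsf2* and *Ints8* lower and *Pcf11* higher at day 12. *Papolg*, called in shSCR, had a log2 difference of 0.32 in Empty (adjusted p = 0.111). *Clp1*, called in Empty, had nearly the same estimate in shSCR. The difference between the 2 datasets was not tested, since the tables were filtered and scaled separately.

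**Figure D2:**
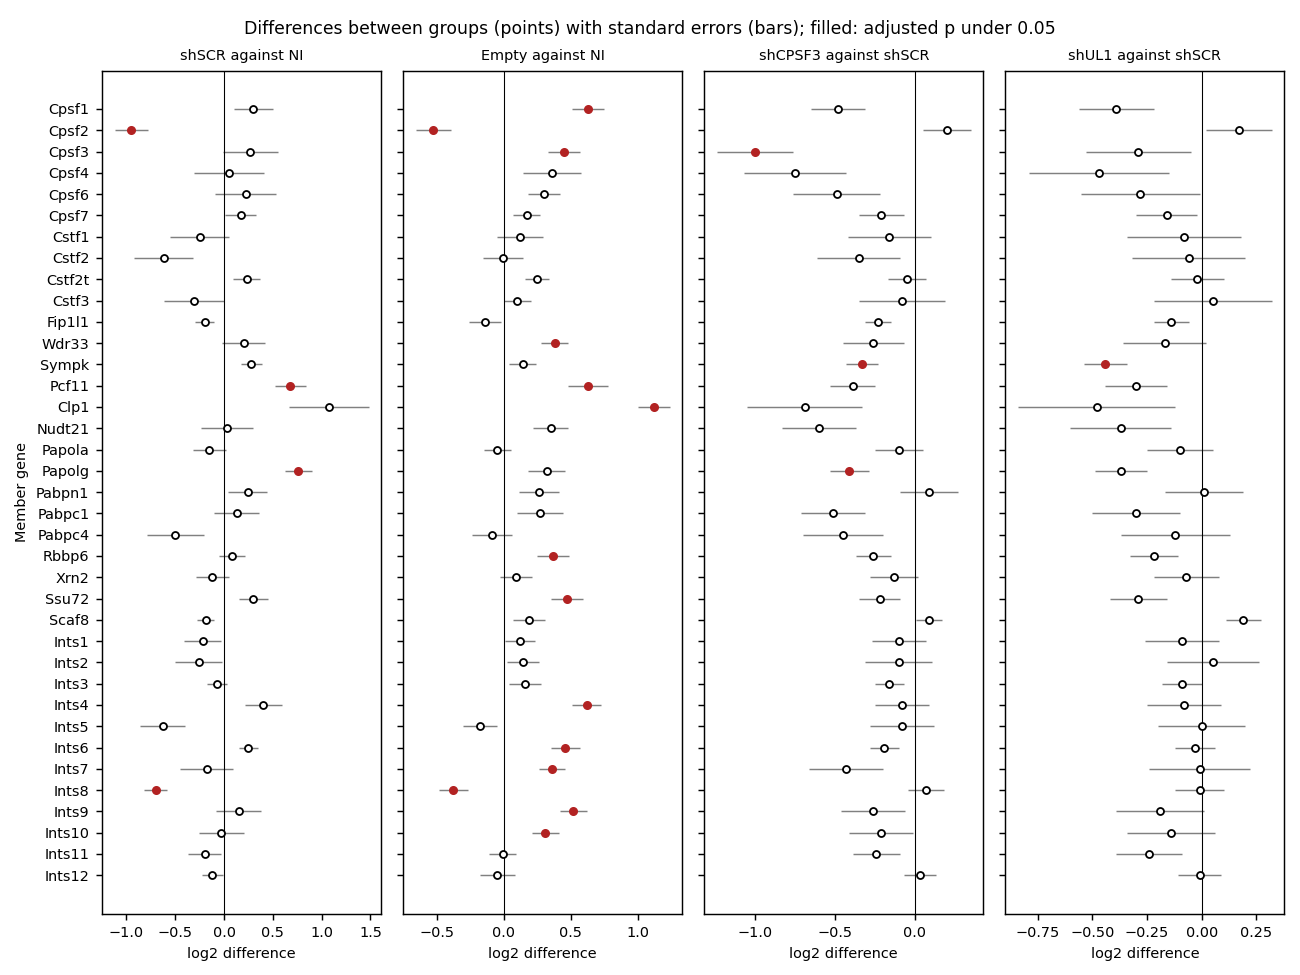
Each panel is a comparison, each row a member, the point the log2 difference of scaled CPM + 1 and the bar its SE, with filled points for an adjusted p under 0.05 and with a separate x range in each panel. The points spread on both sides of 0 in shSCR against NI, lie mostly above 0 in Empty against NI and mostly below 0 in shCPSF3 and shUL1 against shSCR.

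The knockdown of *Cpsf3* was set against shSCR to ask whether the other factors of the machinery changed with it. *Cpsf3* itself was checked first. It measured 38.6 and 50.0 in shCPSF3#1, 42.4 and 77.1 in shCPSF3#2, and 86.7 and 118 in shSCR, all 4 knockdown libraries being lower than both controls. For the mean of both shRNAs the log2 difference was -1.0 (SE 0.24, adjusted p = 0.0207). The call was lost without shCPSF3#1 replicate 1 (adjusted p = 0.0517) or shSCR replicate 2 (adjusted p = 0.169). The library of shCPSF3#2 replicate 2 kept the most *Cpsf3* of the 4.

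No member was called higher when *Cpsf3* was depleted, and most estimates were lower. In this comparison 0 members were called higher, against 16.7% of all genes, and 3 were called lower, against 9.35% of all genes (*Cpsf3*, *Sympk* and *Papolg*). The target *Cpsf3* is itself among the members in this count and in those that follow for shCPSF3 against shSCR. The estimates lay below 0 for 32 of the 37 members, with a median of -0.22 beside 0.0279 for all genes and a range of -1.0 to 0.20. At an unadjusted p under 0.05 there were 10 members, or 27.0%, beside 42.3% of all genes. Members with all 4 shCPSF3 libraries below both shSCR libraries numbered 5 (*Cpsf3*, *Fip1l1*, *Papolg*, *Ssu72* and *Sympk*), against 14.0% of all genes, and 0 members had all 4 above, against 23.9% of all genes. Libraries with the same replicate number deviated together in the day 12 groups, and with the number as a block 13 members were called lower, against 22.6% of all genes, and 0 higher, against 27.2% of all genes. The 10 that passed only with the block were *Cpsf1*, *Cpsf4*, *Cpsf6*, *Fip1l1*, *Pcf11*, *Clp1*, *Nudt21*, *Pabpc1*, *Rbbp6* and *Ints7*, with log2 differences from -0.75 to -0.23 and the lowest adjusted p for *Nudt21* (0.00683).

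*Sympk*, the scaffold that holds the cleavage module together, measured 156 and 143 in shCPSF3#1, 140 and 160 in shCPSF3#2, and 192 and 184 in shSCR, a log2 difference of -0.33 (SE 0.10, adjusted p = 0.0393). Its knockdown libraries were close to the NI libraries, which had 154 and 156. *Papolg* measured 23.5 and 22.2 in shCPSF3#1, 24.4 and 27.3 in shCPSF3#2, and 29.2 and 36.2 in shSCR, a log2 difference of -0.41 (SE 0.12, adjusted p = 0.0454). Its knockdown libraries lay between the NI and the shSCR libraries. Neither call held throughout. Leaving out shSCR replicate 2 gave an adjusted p of 0.136 for *Sympk* and 0.314 for *Papolg*. Leaving out shSCR replicate 1 gave 0.123 for *Sympk*. Both calls were also lost without either NI library, either shCPSF3#1 library, shCPSF3#2 replicate 1 or either shUL1#2 library, and that of *Sympk* without either shUL1#1 library (adjusted p from 0.0544 to 0.111 for these). In all, 0 members were called without shCPSF3#1 replicate 1 or shSCR replicate 2 and 9 without shCPSF3#2 replicate 2. The number was 1 without either NI library, shCPSF3#1 replicate 2, shCPSF3#2 replicate 1 or either shUL1#2 library, and 2 without each of the other 3.

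In the rest of the CPSF core, *Cpsf1*, *Cpsf4* and *Fip1l1* passed the test only with the block, while *Wdr33*, *Cpsf2* and the Integrator endonuclease pair passed in neither fit. *Cpsf1* measured 78.3 and 85.1 in shCPSF3#1, 87.5 and 121 in shCPSF3#2, and 114 and 144 in shSCR (log2 difference -0.48, adjusted p = 0.0702, and 0.0098 with the block). *Cpsf4* measured 18.6 and 21.01 in shCPSF3#1, 21.3 and 43.5 in shCPSF3#2, and 36.9 and 47.5 in shSCR (log2 difference -0.75, adjusted p = 0.11, and 0.0205 with the block). For both genes only shCPSF3#2 replicate 2 reached the range of the controls. *Fip1l1* measured 87.1 and 80.2 in shCPSF3#1, 86.5 and 92.0 in shCPSF3#2, and 103 and 99.5 in shSCR (log2 difference -0.23, adjusted p = 0.0756, and 0.0377 with the block). *Wdr33* measured 57.7 and 59.8 in shCPSF3#1, 61.8 and 91.6 in shCPSF3#2, and 70.0 and 91.5 in shSCR (log2 difference -0.26, adjusted p = 0.324). *Cpsf2* had the only estimate above 0 in the core, with 86.0 and 80.3 in shCPSF3#1, 80.7 and 100.2 in shCPSF3#2, and 65.8 and 85.4 in shSCR (log2 difference 0.20, adjusted p = 0.327). The libraries of *Wdr33* and *Cpsf2* overlapped between the groups. *Ints11* measured 29.6 and 28.1 in shCPSF3#1, 28.0 and 36.9 in shCPSF3#2, and 34.2 and 38.2 in shSCR (log2 difference -0.24, adjusted p = 0.249). Its partner *Ints9* measured 25.5 and 26.3 in shCPSF3#1, 28.0 and 42.8 in shCPSF3#2, and 31.0 and 41.9 in shSCR (log2 difference -0.26, adjusted p = 0.344). Both overlapped through shCPSF3#2 replicate 2 alone.

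The 2 shRNAs differed in their own values. Fitted alone against shSCR, shCPSF3#1 gave 0 members called higher, against 20.8% of all genes, and 7 called lower, against 14.4% of all genes, namely *Cpsf3* (-1.18), *Nudt21* (-0.88), *Cpsf1* (-0.64), *Pcf11* (-0.53), *Papolg* (-0.49), *Ints6* (-0.41) and *Sympk* (-0.33), each as a log2 difference. NUDT21 is the subunit of cleavage factor I that binds upstream of the cleavage site. It measured 43.2 and 48.2 in shCPSF3#1, 54.7 and 82.3 in shCPSF3#2, and 71.4 and 100.2 in shSCR. With shCPSF3#1, 32 estimates were below 0 with a median of -0.33, whereas shCPSF3#2 gave 0 called members, against 5.31% of all genes, 26 estimates below 0 and a median of -0.09. Tested directly, shCPSF3#2 against shCPSF3#1 gave 0 called members, against 0.0212% of all genes, and a median of 0.25.

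The libraries with replicate number 2 carried more of the module's RNA than those with number 1 in several day 12 groups. Replicate 2 was higher than replicate 1 for 32 of 37 members in shSCR (median log2 difference 0.32), 36 in shCPSF3#2 (0.43), 34 in shUL1#1 (0.27) and 34 in shUL1#2 (0.25), but for 22 in shCPSF3#1 and 21 in NI of the knockdown dataset. Among the overexpression groups, replicate 2 was the higher one for 6 members in NI (median -0.20), 11 in Empty (-0.07) and 13 in T7-TIA1 (-0.03). The same medians over all genes lay between -0.01 and 0.06 in both datasets. Below the shSCR library of the same number were 31 and 35 members in replicates 1 and 2 of shCPSF3#1, and 30 and 21 in those of shCPSF3#2, beside 46.0% to 49.5% of all genes. For shUL1 they were 26 and 30 members in shUL1#1 and 29 and 35 in shUL1#2, beside 48.3% to 51.1% of all genes. The summed level of 7 proliferation genes was also higher in replicate 2 than in replicate 1 of each day 12 knockdown group, with 980 and 1930 in shSCR, 233 and 550 in shCPSF3#1, 592 and 1707 in shCPSF3#2, 569 and 1443 in shUL1#1 and 711 and 1356 in shUL1#2 (replicate 1 first). It was lower in replicate 2 of the overexpression groups, with 1820 and 1238 in NI, 2030 and 1776 in Empty and 1780 and 1708 in T7-TIA1. None of the 7 genes passed the test without the block in shCPSF3 or shUL1 against shSCR, and their results with the block were not taken. Yet their summed level was below that of the shSCR library of the same number in every shCPSF3 and shUL1 library. The part of proliferation in the levels of the members was not tested.

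**Figure D3:**
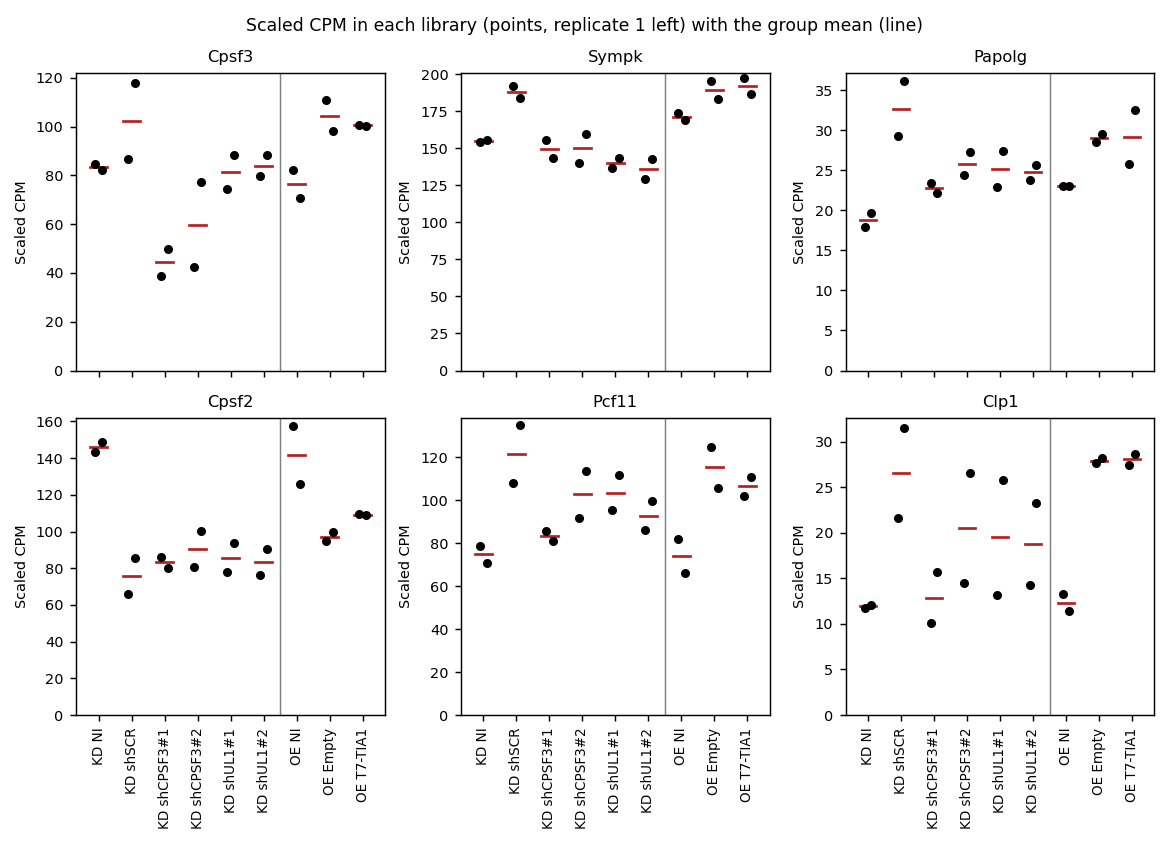
Scaled CPM of 6 members on linear axes that start at 0, with a point for each library (replicate 1 left) and a line for the group mean, the knockdown groups left of the vertical line. *Cpsf3* is lowest in the shCPSF3 groups, *Sympk* and *Papolg* are highest in shSCR among the knockdown groups, *Cpsf2* is highest in both NI groups, and *Pcf11* and *Clp1* are lowest in NI or close to it.

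The shRNAs against *Hnrnpul1*, which encodes an RNA-binding protein that is no member, were compared with the same shSCR libraries. The shCPSF3 and shUL1 comparisons therefore share their controls and are given only side by side. In shUL1 against shSCR, 0 members were called higher, against 7.31% of all genes, and 1 was called lower, against 3.15% of all genes. The called member was *Sympk*, with 137 and 144 in shUL1#1, 129 and 143 in shUL1#2, and 192 and 184 in shSCR, a log2 difference of -0.44 (SE 0.10, adjusted p = 0.0275). All 4 shUL1 libraries lay below both controls and below both NI libraries. This call was lost without any single NI, shSCR or shUL1 library, with adjusted p from 0.05002 to 0.114, so the number of calls was then 0. With the replicate number as a block, 4 members were called lower, against 12.8% of all genes, and 0 higher, against 16.5% of all genes, the other 3 being *Cpsf1*, *Papolg* and *Ssu72* (adjusted p = 0.0357, 0.0253 and 0.0405).

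Again 32 estimates were below 0, with a median of -0.12 beside 0.00415 for all genes and a range of -0.48 to 0.19. All 4 shUL1 libraries were below both shSCR libraries for 6 members (*Cpsf1*, *Fip1l1*, *Papolg*, *Rbbp6*, *Ssu72* and *Sympk*), against 16.4% of all genes. *Scaf8*, a reader of the polymerase tail that restrains early polyadenylation, was the 1 member with all 4 above, against 21.3% of all genes, with 101 and 97.1 in shUL1#1, 100.2 and 101 in shUL1#2, and 86.1 and 88.4 in shSCR (log2 difference 0.19, adjusted p = 0.168). *Cpsf3* measured 74.2 and 88.5 in shUL1#1 and 79.5 and 88.2 in shUL1#2 (log2 difference -0.29, adjusted p = 0.451). *Cpsf1* measured 88.2 and 108 in shUL1#1 and 88.4 and 108 in shUL1#2 (log2 difference -0.39, adjusted p = 0.179). The levels of *Cpsf3* overlapped those of shSCR, while those of *Cpsf1* did not.

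The direct comparison of shCPSF3 with shUL1 called 0 members, against 0.0424% of all genes, with 1 member at an unadjusted p under 0.05 (12.8% of all genes were) and a lowest adjusted p of 0.251. That lowest value belonged to *Cpsf3* (log2 difference -0.70, SE 0.20). The other members had estimates up to 0.12, and the median was -0.08 beside 0.0104 for all genes.

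Overexpression of T7-TIA1, a tagged RNA-binding protein that binds U-rich sequences near splice sites, was compared with Empty. There, 0 members were called, against 0.0% of all genes, and 0 members had an unadjusted p under 0.05 (4.15% of all genes did). The members' estimates ranged from -0.12 to 0.19, with a median of 0.01 beside -0.00214 for all genes. *Cpsf3* measured 101 and 100.4 in T7-TIA1, between its Empty libraries. *Sympk* measured 197 and 187 in T7-TIA1 and 196 and 183 in Empty.

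A list of 47 other genes of the pathway, chosen by their known roles, was counted in the same fits, and 41 of them were in the knockdown table and 42 in the overexpression table. In shSCR against NI, 7 were higher (22.5% of all genes were) and 7 lower (22.0%). The smallest adjusted p belonged to *Zfc3h1*, a factor of nuclear RNA decay (log2 difference 1.09, adjusted p = 0.000209, but -0.02 in Empty against NI, adjusted p = 0.921), *Ncbp2*, the cap-binding subunit (-1.16, adjusted p = 0.000326), and the Integrator subunit *Ints14* (-0.70, adjusted p = 0.000642). The largest called differences were those of *Rprd1a* (1.37, adjusted p = 0.00179, and 0.75 in Empty against NI, adjusted p = 0.0121) and *Nabp1* (1.25, adjusted p = 0.0114, but -0.27 in Empty against NI, adjusted p = 0.297). In Empty against NI, 10 were higher (22.8% of all genes) and 4 lower (23.6%), and *Ncbp2* was again lower (-0.68, adjusted p = 0.00988). In shCPSF3 against shSCR, 2 were higher (16.7% of all genes) and 3 lower (9.35%), and with the block 2 and 11 (27.2% and 22.6%). *Ncbp2* was higher there (0.72, adjusted p = 0.00517), as it was in shUL1 against shSCR (0.67, adjusted p = 0.0132), while *Rprd1a*, a protein that binds the polymerase tail, was lower in shCPSF3 (-0.94, adjusted p = 0.0119) and in shUL1 (-0.78, adjusted p = 0.0404). In shUL1 against shSCR, 1 was higher (7.31% of all genes) and 4 lower (3.15%), and with the block 2 and 6 (16.5% and 12.8%). The largest difference called there without the block was that of *Nabp1*, which encodes a single-stranded DNA-binding protein (-1.11, adjusted p = 0.0356), and it was -0.78 in shCPSF3 (adjusted p = 0.0604). The medians of the list were -0.16 for shCPSF3 and -0.12 for shUL1, close to those of the members. The remaining comparisons, shCPSF3 against shUL1 and T7-TIA1 against Empty, called 0 of the list.

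Splicing within the members was read from the percent spliced-in (PSI), the share of transcripts that include an exon, an intron or an alternative site. Member events had a median of 321 reads per library. Under the PSI rule, an event counts when the group means differ by at least 10 and the libraries of the groups are at least 5 apart, with no test. In shSCR against NI, 11 of 2164 member events met it, against 1.18% of all covered events. In shCPSF3 against shSCR 3 did, against 0.396%, and in shUL1 against shSCR 1 did, against 0.333%. In shCPSF3 against shUL1 0 did, against 0.00508%, in Empty against NI 5 of 2176 did, against 0.658%, and in T7-TIA1 against Empty 0 did, against 0.272%. The share among member events was thus below that of all events in each comparison, a difference that was not tested. The rule depends on both libraries, since without replicate 1 or replicate 2 of every group the counts were 16 and 25 in shSCR against NI, 7 and 12 in shCPSF3 and 8 and 8 in shUL1 against shSCR, 2 and 2 in shCPSF3 against shUL1, 13 and 17 in Empty against NI, and 8 and 1 in T7-TIA1 against Empty.

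In the test on inclusion and exclusion reads (*limma*, adjusted over all covered events), 52 member events were called in shSCR against NI, against 4.48% of all events. These were 38 with higher and 14 with lower inclusion, in 22 genes, and 19 of the 21 called introns were more retained in shSCR. The sizes were often small, since 11 of the 52 differed by less than 1 in PSI. In shCPSF3 against shSCR 11 were called in 7 genes, against 0.632%, and in shUL1 against shSCR 2 were called, against 0.158%. In shCPSF3 against shUL1 0 were called, against 0.0%. In Empty against NI 0 were called, against 0.000525%, with 197 (9.05%) at an unadjusted p under 0.05 beside 17.9% of all events. In T7-TIA1 against Empty 0 were called, against 0.0%, with 129 (5.93%) at an unadjusted p under 0.05 beside 5.75% of all events. Many covered events have almost no reads on one side, and a minimum of 1 mean read on each side was added after the values were seen. With it, 37 of 768 member events were called in shSCR against NI, against 6.4% of all events tested, 25 in shCPSF3 against shSCR, against 3.6%, and 11 in shUL1 against shSCR, against 1.94%. In shCPSF3 against shUL1 0 were called, against 0.0042%, in Empty against NI 6 of 821 were called, against 0.996%, and in T7-TIA1 against Empty 0 were called, against 0.0556%. The counts also moved with single libraries. In shSCR against NI they were 9 without NI replicate 2, 11 without NI replicate 1, 17 and 22 without shSCR replicates 1 and 2, and 31 to 41 without any of the other 8. In shCPSF3 against shSCR they ran from 0 without shCPSF3#2 replicate 1 to 8 without shSCR replicate 2, with 1 to 5 without each of the others. In shUL1 against shSCR they were 0 without shSCR replicate 1 or any shUL1 library, 1 without any shCPSF3 library, 2 without either NI library and 3 without shSCR replicate 2.

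The largest difference was in the *Papola* exon shown above. Its PSI was 77.6 and 71.9 in NI and 93.6 and 94.5 in shSCR, a difference of 19.3 in PSI (log2 ratio of reads 2.41, adjusted p = 0.0141). In the overexpression dataset it was 77.5 and 72.1 in NI, 94.6 and 90.5 in Empty and 89.4 and 89.1 in T7-TIA1, a difference of 17.7 between Empty and NI (adjusted p = 0.137, and 0.000962 with the minimum of reads on each side). Inclusion was thus higher in all day 12 libraries than in all day 0 libraries. The knockdown libraries lay between, with 88.9 and 86.2 in shCPSF3#1, 89.8 and 88.1 in shCPSF3#2, 84.7 and 89.0 in shUL1#1 and 85.5 and 91.8 in shUL1#2. Against shSCR the difference was -5.83 for shCPSF3 (adjusted p = 0.139, and 0.0251 with the minimum) and -6.35 for shUL1 (adjusted p = 0.185, and 0.0286 with the minimum). The call in shSCR against NI was lost without any single NI or shSCR library (adjusted p from 0.0528 to 0.0707). The total level of *Papola* mRNA, 282 and 297 in NI and 235 and 289 in shSCR, overlapped.

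The *Fip1l1* exon was the event that met both criteria in both knockdowns. Its PSI was 34.1 and 36.9 in shSCR, 52.5 and 49.6 in shCPSF3#1, 49.1 and 45.8 in shCPSF3#2, 50.6 and 49.8 in shUL1#1, and 52.5 and 50.9 in shUL1#2. All 8 knockdown libraries were higher than both controls. The difference was 13.8 for shCPSF3 (log2 ratio of reads 0.82, adjusted p = 0.0214) and 15.5 for shUL1 (0.92, adjusted p = 0.023), and the 2 share the control libraries. In NI the PSI was 45.7 and 42.2, so shSCR lay below NI (difference -8.47, adjusted p = 0.0383). In the overexpression dataset the values were 51.2 and 49.9 in NI, 46.5 and 36.7 in Empty, and 46.5 and 45.9 in T7-TIA1, where the 2 Empty libraries were far apart. The shCPSF3 call was lost without either shCPSF3#1 library, shCPSF3#2 replicate 1 or shSCR replicate 1 (adjusted p from 0.064 to 0.0686). The shUL1 call was lost without shSCR replicate 1 or any single shUL1 library (adjusted p from 0.0662 to 0.101).

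The *Ints7* exon, whose skipping shifts the frame, had a PSI of 96.2 and 96.0 in shSCR, 91.4 and 91.8 in shCPSF3#1, 91.2 and 92.5 in shCPSF3#2, 92.6 and 92.3 in shUL1#1, and 91.6 and 90.6 in shUL1#2. It was lower in all 8 knockdown libraries, with a difference of -4.40 for shCPSF3 (log2 ratio of reads -1.12, adjusted p = 0.0311) and -4.32 for shUL1 (-1.11, adjusted p = 0.0449, and 0.0572 with the replicate number as a block). In NI it was 93.0 and 91.0, so shSCR stood above all other knockdown groups. In the overexpression dataset the values were 90.3 and 88.5 in NI, 91.4 and 89.5 in Empty, and 84.1 and 92.1 in T7-TIA1, which overlapped. Leaving out any single shSCR, shCPSF3 or shUL1 library raised the adjusted p above 0.05 in both comparisons (0.0525 to 0.0921 for shCPSF3 and 0.0649 to 0.134 for shUL1).

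Alternative splice sites of 4 members also met the PSI rule, each as a pair of mirrored values. In *Cstf1*, a subunit of the cleavage stimulation factor that binds downstream of the cleavage site, the alternative 5′ splice site that adds 171 nt had a PSI of 29.7 and 35.8 in NI and 51.0 and 46.3 in shSCR (difference 15.9, adjusted p = 0.0373). In *Ints8*, the 3′ splice site with 119 nt more than the first had a PSI of 93.9 and 94.7 in NI and 78.1 and 80.0 in shSCR (difference -15.2, adjusted p = 0.00704), so that a shorter form was used more. In the knockdown dataset, shSCR was apart from NI for both genes. In the overexpression dataset the *Cstf1* site was at 31.4 and 44.8 in NI and 39.9 and 44.3 in Empty, which overlapped, and the *Ints8* site was at 94.0 and 89.8 in NI, 83.5 and 86.1 in Empty, and 86.2 and 90.1 in T7-TIA1. In *Ints6*, the 5′ splice site that adds 30 nt had a PSI of 74.2 and 73.5 in NI of the overexpression dataset and 51.6 and 62.0 in Empty (difference -17.0, adjusted p = 0.188, and 0.0831 with the minimum of reads on each side). In the knockdown dataset the same site was at 72.7 and 70.4 in NI and 55.2 and 62.9 in shSCR and met the PSI rule too (difference -12.6, adjusted p = 0.0976, and 0.0609 with the minimum). In *Cpsf7*, a subunit of cleavage factor I, the 5′ splice site that adds 273 nt had a PSI of 8.81 and 4.15 in shSCR and of 18, 21.9, 18.4 and 17.1 in the 4 shCPSF3 libraries (difference 12.4, adjusted p = 0.142). Thus *Cpsf7* passed the test only with the minimum of reads on each side (adjusted p = 0.0302). *Ints6* passed only with the replicate number as a block as well as the minimum (adjusted p = 0.0348 in Empty and 0.0259 in shSCR), or in shSCR with the block alone (0.0351). Across events, deviations of same-numbered libraries correlated at only 0.011 between NI and shSCR and 0.0214 between NI and Empty. The blocked *Ints6* values therefore rest on a pairing that the events hardly show. The *Cstf1* call was lost without any single NI, shSCR, shCPSF3 or shUL1#1 library (adjusted p from 0.0516 to 0.163), whereas the call of the longer *Ints8* site held in each alternative. In *Cpsf6*, another subunit of cleavage factor I, the 3′ splice sites that add 96 and 99 nt shifted by -7.12 and 7.0 in shCPSF3 against shSCR (adjusted p = 0.0446 and 0.0386). With the minimum these were 0.0547 and 0.0561, with the block that of the site adding 96 nt was 0.0501, and both calls were lost without any single library of the knockdown dataset (adjusted p from 0.0548 to 0.139).

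Further events were chosen after their values were seen. A *Cstf3* exon of 117 nt had a PSI of 95.9 and 97.1 in NI, 81.5 and 87.7 in shSCR, and between 90.6 and 96.0 in the 8 knockdown libraries (shSCR against NI -11.9, adjusted p = 0.0361). It was 98.6 and 99.3 in NI of the overexpression dataset and 90.0 and 92.2 in Empty (adjusted p = 0.154, and 0.00487 with the minimum of reads on each side). CSTF3 links the subunits of the cleavage stimulation factor, and its exon was lower in all day 12 control libraries than at day 0. An *Ints6* exon of 223 nt went from 2.81 and 2.67 in NI to 20.5 and 13.3 in shSCR (adjusted p = 0.0213) and from 1.81 and 2.90 to 11.3 and 10.1 in Empty (adjusted p = 0.127, and 0.0256 with the minimum). The *Cstf3* call was lost without any single NI, shSCR, shCPSF3#1 or shUL1 library (adjusted p from 0.0533 to 0.159), and the *Ints6* call without either NI library or shSCR replicate 1 (0.0516 to 0.129).

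An intron of *Cpsf3* was more retained and an intron of *Sympk* less retained in shCPSF3 than in shSCR. Intron 5 of 17 of *Cpsf3*, at chr12:21295208-21296646, had a PSI of 1.74 and 1.35 in shSCR, 6.60 and 5.63 in shCPSF3#1, 7.49 and 4.47 in shCPSF3#2, and 2.86 to 4.51 in the 4 shUL1 libraries. It was higher in all 4 shCPSF3 libraries, by 4.50 (adjusted p = 0.0367), and NI stood between at 3.10 and 3.12. *Cpsf3* mRNA is itself the target of these shRNAs. The event had 554 and 751 reads in shSCR, 218 and 319 in shCPSF3#1, and 244 and 503 in shCPSF3#2. At such low PSI, few of these reads came from the intron. The part of the loss of target RNA in this shift was not tested. An intron of 461 nt in *Sympk*, at chr7:19045171-19045631, had a PSI of 4.39 and 3.89 in NI, 11.3 and 10.3 in shSCR, 6.09 and 5.99 in shCPSF3#1, and 5.79 and 7.28 in shCPSF3#2. It was higher in shSCR than in NI by 6.67 (adjusted p = 0.00585) and lower in shCPSF3 than in shSCR (difference -4.52, adjusted p = 0.0282). Both shCPSF3 calls were lost without either NI library, either shCPSF3#1 library, shCPSF3#2 replicate 1, shSCR replicate 1 or either shUL1#2 library, and the *Cpsf3* call also without shSCR replicate 2 or either shUL1#1 library (adjusted p from 0.0516 to 0.115). A *Wdr33* intron at chr18:31833735-31835383 met the PSI rule in Empty against NI. Its PSI was 28.6 and 35.9 in NI and 19.3 and 18.6 in Empty (adjusted p = 0.142, and 0.0427 with the minimum of reads on each side). In the knockdown dataset it was 27.5 and 35.9 in NI and 43.5 and 29.9 in shSCR, which overlapped.

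**Figure D4:**
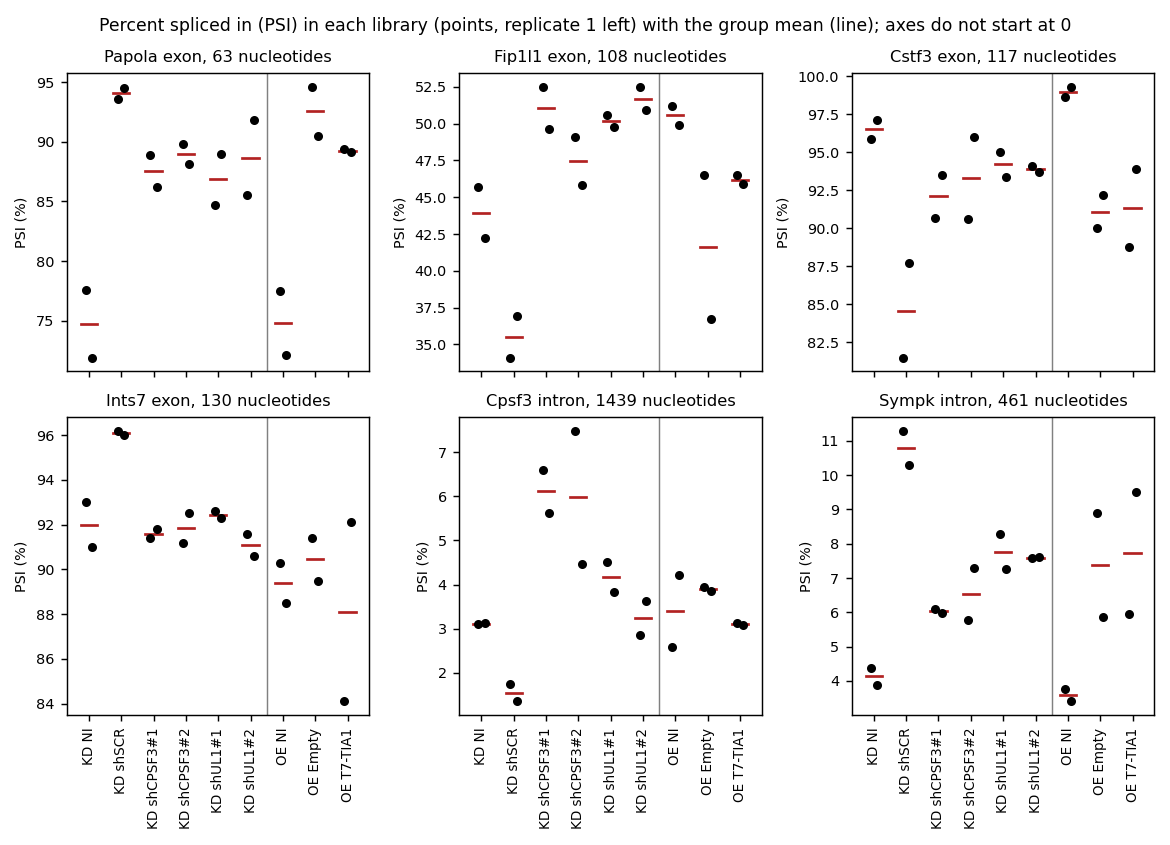
PSI in percent of 6 member events, with a point for each library (replicate 1 left), a line for the group mean, the knockdown groups left of the vertical line and a separate y range in each panel. The *Papola* exon is lowest in both NI groups, the *Fip1l1* exon is lowest in shSCR among the knockdown groups, and the *Cpsf3* intron is highest in the shCPSF3 groups.

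Introns of *Pabpn1*, *Pcf11* and *Cstf3*, genes known for regulated introns or internal poly(A) sites, were read as a fixed set of 6, 15 and 20 events. By the PSI rule and by the test, 0 of them were called in any of the 6 comparisons, against at most 1.18% and 4.48% of all events. So small a set could give 0 at these shares. With the minimum of reads on each side, 31 were tested in the knockdown and 33 in the overexpression dataset. In Empty against NI, 1 *Pcf11* intron was then called (difference -5.01, adjusted p = 0.0256), against 0.996% of all events. In each other comparison 0 were, against at most 6.4%. In shCPSF3 against shSCR, the differences ran from -0.215 to 8.22 in PSI for *Pabpn1*, which encodes the nuclear poly(A)-binding protein, from -0.73 to 1.07 for *Pcf11* and from -2.23 to 1.19 for *Cstf3*. Between the days, the differences of *Pcf11* ran from -1.36 to 9.29 in shSCR against NI and from -10.7 to 2.35 in Empty against NI, and those of *Cstf3* from -4.83 to 3.68 and from -10.3 to 0.98. The mRNA of *Pabpn1* measured 18.3 and 15.3 in NI, 20.03 and 19.96 in shSCR, and 18.8, 24.0, 17.96 and 25.5 in the shCPSF3 libraries (log2 difference against shSCR 0.09, adjusted p = 0.718).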

How the data were processed

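Expression and splicing were analyzed in 18 poly-A RNA-seq libraries. Per the labels' processing notes and the paper, the authors mapped reads to mm10 with STAR 2.7.1a, obtained CPM with edgeR 3.16.5 and filtered genes on level and variation. The deposited tables hold a nonnegative signal, namely CPM computed against a library size scaled for each library, and this scaling can shift all genes of a library together. A filter on variation was not seen in the tables, where 24 and 33 members had a coefficient of variation under 0.2. The authors quantified splicing with vast-tools and deposited PSI in percent, with a text giving coverage and reads. Events were used when every library of the dataset, also those outside a comparison, had a coverage score that stands for at least 10 reads.

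In R 4.3.3, log2(value + 1) of each dataset was fitted with *limma* 3.58.1 (all groups in one fit, trend option, two-sided) with Benjamini-Hochberg adjustment over all genes. No gene was filtered. The design of this test assumed plain CPM, and it was kept for the scaled values. Each targeted factor is the mean of both shRNAs against shSCR. For events, *limma* was run on log2 of inclusion over exclusion reads, each with 1 read more, with weights from the counting variance and a floor of 0.031 (knockdown) or 0.04 (overexpression), and adjusted over all 374159 or 380903 covered events. Reads limit counting precision only. Both fits were tested on simulated data, where the event test had little power in the overexpression dataset. Tables were made in Python 3.11.15 with NumPy 2.4.6 and pandas 2.3.3.

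Values in every library were given for *Cpsf3*, each member called in any comparison and the CPSF core and its Integrator paralogs, where a comparison concerned them. Of the events called by either criterion, at most 4 per comparison with the largest absolute differences were named, and others are said to be chosen later. The members, the pathway and marker lists and the tests were chosen with earlier results of these data known. Exon positions and sequences come from GENCODE transcripts on GRCm38 (mm10), and shRNA targets from the study's supplement. Alternatives changed the scaling, the pseudocount, the trend, the groups fitted, the thresholds of the PSI rule, the constant and scale of the event test, the replicate block and the libraries. The labels do not say what a replicate number shares. Deviations from the group means of libraries with the same number correlated across genes at 0.674 to 0.949 among the day 12 knockdown groups, 0.171 to 0.308 in the overexpression dataset and -0.127 to 0.022 between NI and the knockdown groups, so the numbers were read as pairing the first and second sets but not the third. Across events the same correlations were weaker, at 0.101 to 0.253, 0.0214 to 0.117 and -0.0234 to 0.011. That reading of the numbers was made with the calls of both fits known. The block was a single term shared by all libraries of a dataset, so NI was in the blocked knockdown fit although its numbers were not read as paired. Tests on counts were planned and not run, since the deposited values are not counts.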

Additional observations from a re-analysis of the deposited data

Results flagged for a closer look

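For 3 members, both day 12 libraries lay below both NI libraries in the knockdown dataset (shSCR) but above both NI libraries in the overexpression dataset (Empty), as did 1.58% of the 9041 genes in both tables. *Scaf8* had a log2 difference of -0.19 in shSCR against NI and 0.19 in Empty against NI. *Ints1* had -0.22 and 0.12, and *Ints3* had -0.07 and 0.16. The difference between the datasets was not tested, and no single one of these 6 differences passed the test (lowest adjusted p = 0.128).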

How the results depend on the processing

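Called members, events that met the PSI rule, and events called in shCPSF3 or shUL1 against shSCR kept their direction in each alternative run: 540 of these values kept their side of the threshold, 270 fell short of it and 19 newly passed it. Members that were not called are not among them, and *Pabpn1* in shCPSF3 against shSCR ran from -0.03 to 0.21 without single libraries. Numbers of called members follow in the order of the text. With the replicate number as a block, 11 members were called in shSCR against NI (7 higher and 4 lower), 13 in shCPSF3 and 4 in shUL1 against shSCR, and apart from *Ints10* in Empty it changed no other call of a member's expression. The share of all genes called with the block was not taken for shSCR against NI, so these 11 cannot be set against it. They also rest on a pairing that NI did not show. Fitting only the groups compared gave 0 in shCPSF3, 0 in shUL1 and 4 in Empty against NI, and median-ratio scaling gave 5 in shCPSF3. Under the PSI rule with a minimum of 15, 5 events met it in shSCR, 0 in shCPSF3 and 3 in Empty; with no minimum gap, 6 did in shCPSF3, 5 in shUL1, 2 in shCPSF3 against shUL1 and 8 in Empty. In the event test, a constant of 0.5 gave 22 in shSCR. Testing PSI in percent gave 15 in shSCR, 9 in shUL1, 3 in shCPSF3 against shUL1, 15 in Empty and 13 in T7-TIA1. The minimum of reads on each side gave 25 in shCPSF3, 11 in shUL1 and 6 in Empty, and with the block 34, 15 and 10, while the block alone gave 1 in shUL1. The cause of these shifts was not tested.

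Without each library in turn, calls ran over 3 to 5 (shSCR), 0 to 9 (shCPSF3), 0 to 1 (shUL1), 0 to 0 (shCPSF3 against shUL1), 1 to 23 (Empty) and 0 to 0 (T7-TIA1) for expression, and 9 to 41, 0 to 8, 0 to 3, 0 to 0, 0 to 0 and 0 to 0 for reads. Without replicate 1 or 2, the PSI rule gave 16 to 25, 7 to 12, 8 to 8, 2 to 2, 13 to 17 and 1 to 8. A lone library was assumed to vary like the other groups.

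Between NI and shSCR the samples share only a number. Count tests with edgeR were planned but not run. The 2 libraries per group limit the size of change that is detectable for a single member.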
